A study of Mus musculus with 12 samples.

Results

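The subject is a set of 35 genes known as targets or partners of the transcription factor p53, measured in a mouse macrophage line as part of a table of 32688 genes. The members were given as a list of gene names and found by gene symbol through their gene identifiers, and all 35 were present. 34 of them passed the filter on low counts and were tested, whereas Perp, which encodes a membrane protein linked to cell death, did not. The members fall into 5 roles: p53 and its feedback, cell cycle arrest, apoptosis and death receptors, DNA repair and nucleotide supply, and metabolism and others.

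p53, encoded by Trp53 in the mouse, is held at a low level by the ubiquitin ligase MDM2 and is stabilised when kinases such as ATM and CHK2 report broken DNA. It then binds a pair of similar half-sites near its target genes and activates genes that stop the cell cycle, repair DNA or prepare the cell to die. Several targets, among them Mdm2, Ccng1 and Ppm1d, in turn restrain p53, so the pathway contains its own brake, and because much of its control acts on the protein, the level of Trp53 RNA need not follow its activity.

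RNA-seq gene counts came from RAW264.7 cells, a macrophage line derived from a mouse tumour, in 4 groups of 3 libraries. Null cells, the wild-type cells of the study, and DKO cells, a double knockout without TFEB or TFE3, were either left as controls or given etoposide at 100 µM for 8 h. TFEB and TFE3 are related transcription factors of lysosomal and stress genes, and etoposide traps topoisomerase II on broken DNA. The DKO cells were made by CRISPR editing, and each genotype is 1 line, so the replicates measure the spread between cultures or libraries and not that between separately edited lines. The labels describe the control cells as untreated while the methods of the study name DMSO, the solvent, and both groups of controls share that uncertainty. The titles of the DKO etoposide libraries hold the word MEFs and no genotype, whereas their genotype and cell labels give DKO and RAW264.7.

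Total counts lay between 29837255 and 61809316 per library, and 14.1% to 21.7% of them came from the mitochondrial genome. The mitochondrial share was highest in the Null etoposide libraries, at 19.4% to 21.7%, against 14.1% to 18.3% in Null control, 16.6% to 17.5% in DKO control and 17.0% to 18.1% in DKO etoposide libraries. Levels below are CPM, read counts relative to the library size after scaling by the trimmed mean of M values (TMM). In DKO libraries Tfeb and Tfe3 were lower than in Null libraries in control cells (log2 differences of -1.95 and -1.47) and after etoposide (-0.79 and -1.43), without overlap. All 8 macrophage markers examined were present in every library, the lowest being Fcgr1 at 4.72 CPM in a DKO etoposide library. None of 8 fibroblast markers exceeded 1.38 CPM in any library. Control libraries spread along 1 direction more than etoposide libraries did. The first principal component of the deviations from the group means held 43.1% of the within-group variance, with scores of -36.5, 5.57 and 30.9 in Null control replicates 1, 2 and 3 and 44.1, -14.2 and -29.9 in DKO control replicates 1, 2 and 3, against -2.51 to 3.24 in Null etoposide and -21.2 to 20.7 in DKO etoposide libraries. The control replicates numbered 1 lie at opposite ends.

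To show the letters that p53 is known to recognise, promoter windows of 300 bases, from 250 bases before to 50 bases after each start site, were searched on both strands for the p53 half-site consensus of 10 bases. RefSeq (GRCm38.p6) held a window for 28 of the 35 members. A half-site was found in 11 of the 28 members (39.3%) and in 9.6% of the 27025 genes with a window. A full site of 20 bases was found in 4 of the 28 members (14.3%) and in 0.4% of all genes. It is made of adjoining half-sites with up to 2 mismatches, none of them at the fixed C or G of a half-site. These matches are descriptions of letters and not of binding. The full sites of Cdkn1a, Ccng1 and Rps27l overlap half-site matches, whereas that of Zfp365 overlaps none.

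The full sites of Cdkn1a, Ccng1, Zfp365 and Rps27l are shown because they come closest to a pair of half-sites, with the site in capitals, 15 bases on either side in lower case, and each read 5′ to 3′ on the strand of its gene. The coordinates are those of the printed stretch with its flanks, and distances are from the first capital to the start site. The stretch of Cdkn1a is chr17:29090913-29090962 on the plus strand, and its site begins 51 bases before the first of its start sites and has 1 mismatch. The window of the second Cdkn1a start site, further downstream, held no half-site and no full site. The stretch of Ccng1 is chr11:40755447-40755496 on the minus strand, with a site 195 bases before the start and 1 mismatch, and that of Zfp365 is chr10:67912691-67912740 on the minus strand, with a site 63 bases before the start and 2 mismatches. These 3 lie between annotated genes. The stretch of Rps27l is chr9:66946281-66946330 on the plus strand, and its site begins 117 bases before the second of its start sites, has 1 mismatch and lies in an intron of a longer Rps27l transcript.
Cdkn1a: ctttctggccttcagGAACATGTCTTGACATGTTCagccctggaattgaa
Ccng1: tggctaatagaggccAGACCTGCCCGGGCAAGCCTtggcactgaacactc
Zfp365: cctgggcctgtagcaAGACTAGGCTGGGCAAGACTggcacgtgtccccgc
Rps27l: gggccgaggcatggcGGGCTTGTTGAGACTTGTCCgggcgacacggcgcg

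The promoters of Trp53 and of its regulators Mdm2 and Ppm1d each held 1 half-site, shown with the same flanks to set the feedback genes beside the full sites. That of Trp53 (stretch chr11:69580269-69580308, plus strand) begins 75 bases before the start site, that of Mdm2 (stretch chr10:117710920-117710959, minus strand) 186 bases and that of Ppm1d (stretch chr11:85311107-85311146, plus strand) 132 bases, and all 3 lie between annotated genes.
Trp53: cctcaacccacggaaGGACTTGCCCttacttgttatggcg
Mdm2: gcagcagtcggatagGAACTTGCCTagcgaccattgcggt
Ppm1d: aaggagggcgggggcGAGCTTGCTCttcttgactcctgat

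The first comparison asked how the targets of p53 responded to etoposide in Null cells. 27 of the 34 tested members rose and none fell (limma-trend, Benjamini-Hochberg over all genes, adjusted p under 0.05), where 20.9% of all 18066 genes tested rose and 18.7% fell, 39.6% together. The median log2 fold change of the members was 1.98, against 0.03 over all genes. In bulk RNA, fewer cells expressing a gene and less RNA per cell cannot be told apart. In 29 members every etoposide library lay above every control library, as was the case for 28.1% of all genes, with 24.9% the other way round. All 6 tested genes of cell cycle arrest and all 10 of apoptosis rose, as did 3 of 5 feedback genes, 4 of 6 genes of repair and nucleotide supply and 4 of 7 of the last role.

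In DKO cells 24 members rose and 2 fell, Ddb2 and Mdm4, where 20.2% of all genes rose and 19.1% fell. The median of the members was 1.06, against 0.03 over all genes, and 17 of the 24 that rose did so by at least 1 on the log2 scale, compared with 23 of the 27 in Null cells. Of all 18066 genes, 2370 in DKO cells and 2381 in Null cells were called with an absolute value of at least 1, in either direction. The 24 genes that rose in DKO cells also rose in Null cells, and Gadd45a, Ppm1d and Zmat3 passed the test in Null cells alone, though Ppm1d and Zmat3 also passed it in DKO cells under some alternatives. Of the 27 members that rose in Null cells, 26 had a smaller log2 fold change in DKO cells, and the exception was Rrm2b. A smaller value in the other line is favoured by choosing genes for their rise in Null cells, and it was seen in 70.9% of all 3768 genes that rose there. These comparisons share no library.

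Whether the response itself differed between the genotypes was tested by the interaction, the log2 response in DKO cells minus the Null one. It was called for 18 members, all lower in DKO cells, where 6.39% of all genes were called lower and 3.07% higher, 9.45% together, and the members had a median of -0.78 against -0.01 over all genes. With an absolute log2 difference of at least 1 required, 10 of the 34 tested members and 816 of all 18066 genes remained. The mitochondrial share, which set the Null etoposide libraries above all others, moved with the larger response of Null cells, and its part in the interaction was not tested. By role, the interaction was lower for 3 of 5 feedback genes, 4 of 6 arrest genes, 8 of 10 apoptosis genes, 1 of 6 repair genes and 2 of 7 of the last role.

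**Figure D1:**
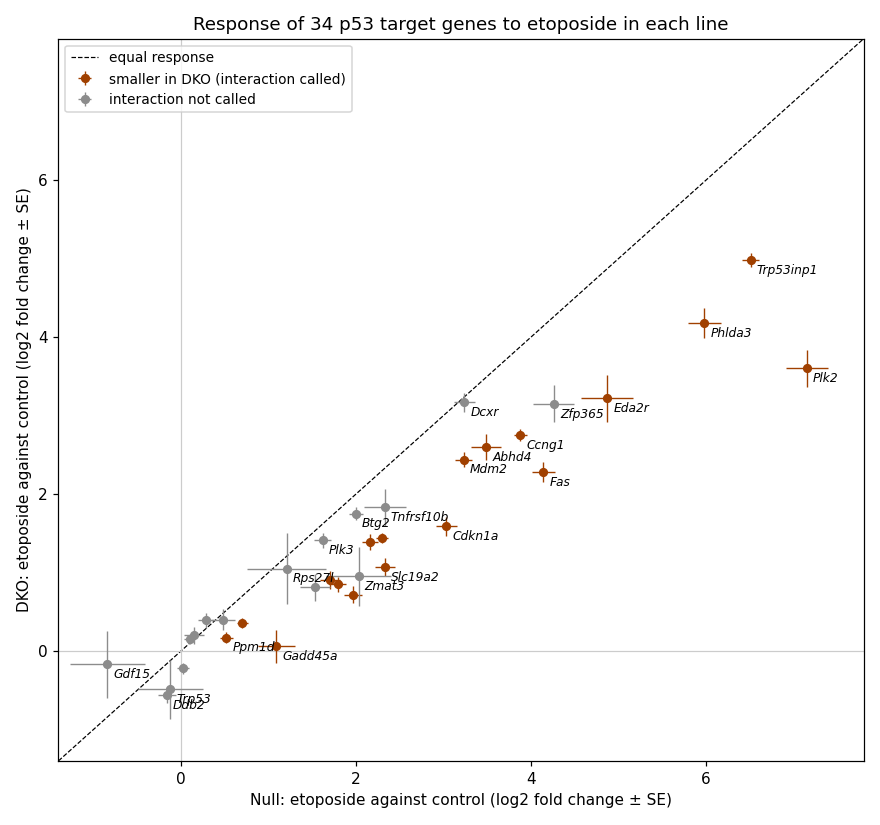
Log2 fold change with etoposide in Null cells (horizontal axis) and in DKO cells (vertical axis) for the 34 tested members, with standard errors as bars and the line of equal response dashed. The 18 brown points, called in the interaction, lie below the line, and the 16 grey points, not called, reach from Gdf15 at -0.84 and -0.17 to Zfp365 at 4.26 and 3.15, the latter also below the line.

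The same members were then compared between the lines at each treatment, which separates a higher start from a lower end. In control cells 16 members were higher in DKO than in Null cells and 1, Btg2, was lower, where 10.9% of all genes were higher and 8.39% lower (medians 0.35 and -0.00). After etoposide 5 members were higher in DKO cells and 16 lower, where 15.9% and 17.8% of all genes were higher and lower (medians -0.23 and -0.01). Of the 18 members with a lower interaction, 7 were higher in DKO cells before etoposide and lower after it (Mdm2, Ccng1, Sertad1, Fas, Aen, Phlda3 and Slc19a2). Another 4 (Cdkn1a, Eda2r, Ei24 and Abhd4) were higher before it and not called after it. A further 6 (Ppm1d, Gadd45a, Pidd1, Apaf1, Trp53inp1 and Ercc5) were not called before it and lower after it, and Plk2 was higher at both. The 2 comparisons between lines share no library, but each shares libraries with the interaction, so this division describes the genes and is no separate test. No such division is given for all genes with a lower interaction, so it cannot be called particular to the members. Some of its calls change under the alternatives given with each gene.

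**Figure D2:**
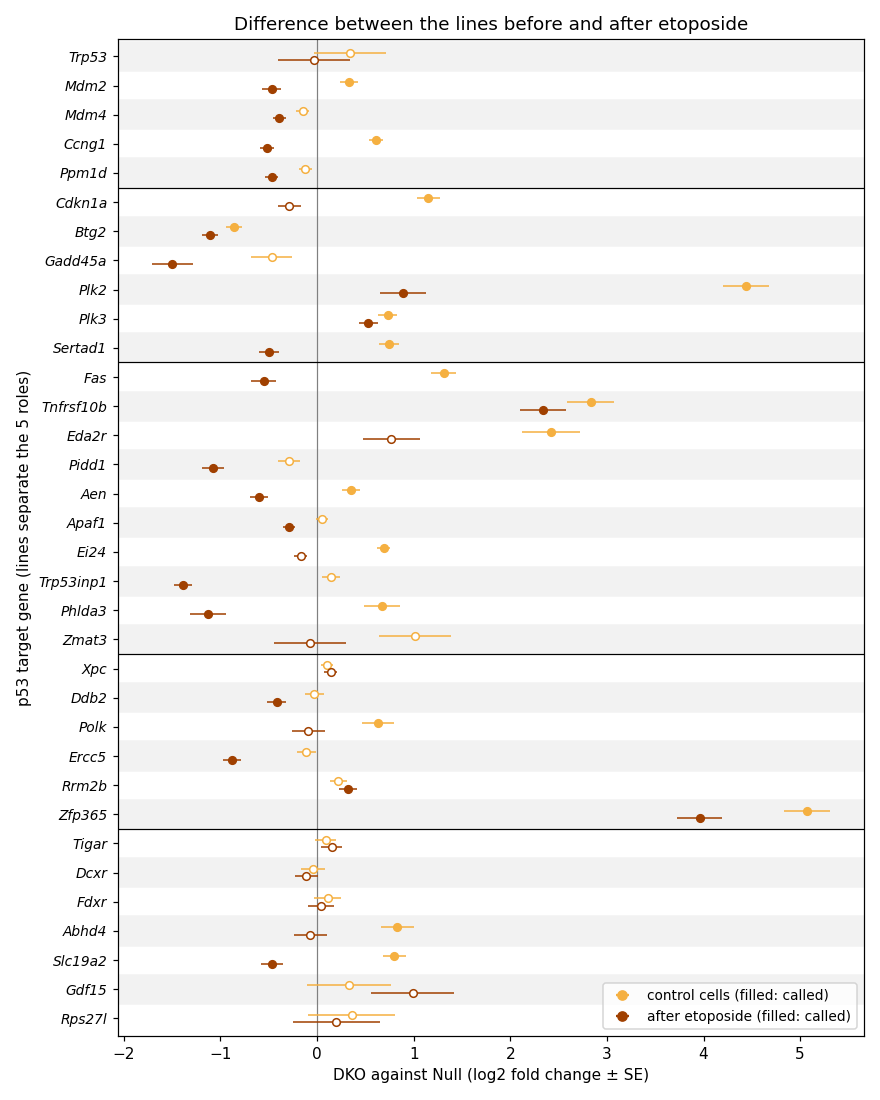
Log2 difference of DKO from Null cells for the 34 tested members in control cells (orange) and after etoposide (brown), with standard errors as bars, filled where called and open where not. Tnfrsf10b (2.83 and 2.34), Zfp365 (5.07 and 3.96) and Plk2 (4.44 and 0.89) stand to the right at both treatments, Btg2 (-0.86 and -1.11) stands to the left at both, and genes such as Fas (1.31 and -0.55) change side.

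Among p53 and its feedback genes, the RNA of p53 itself was not called in any comparison. Trp53 (chr11:69580359-69591873 of GRCm38, plus strand) measured 609, 382 and 264 CPM in Null control replicates 1, 2 and 3 and 364, 348 and 375 CPM after etoposide. In DKO cells it measured 269, 619 and 750.0 CPM in controls and 345, 259.8 and 501 CPM after etoposide. The groups overlapped throughout, and the Null etoposide libraries stood out by their narrow range. Its log2 fold change was -0.12 in Null cells (SE 0.371, adjusted p 0.829 by limma-trend) and -0.49 in DKO cells (adjusted p 0.331). Without DKO control replicate 1 the latter became -0.95 (adjusted p 0.0333). Without both control replicates numbered 1, a choice made after seeing the data, Trp53 was 1.12 higher in DKO than in Null control cells (adjusted p 0.0172). They are the Null control with the highest Trp53 and the DKO control with the lowest, so leaving them out was bound to widen this difference. The absence of these calls rests on those libraries.

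Mdm2, the ligase that targets p53 for destruction, was among the more strongly raised members. It measured 46.5, 46.6 and 53.6 CPM in the Null controls and 472, 438 and 467 CPM once treated, and in the DKO line 71.5, 56.8 and 56.2 CPM in controls and 329, 342 and 325 CPM once treated. No group overlapped another: DKO libraries were above Null libraries before the drug and below them after it. It rose by 3.23 (9.40-fold; SE 0.0959, adjusted p 3.23e-10) in Null cells and by 2.44 in DKO cells, and the interaction was -0.79 (SE 0.136, adjusted p 0.00236). The difference of the lines in control cells was 0.33 (adjusted p 0.0315), ran from 0.19 to 0.39 over 20 alternatives and lost its call in 9 of them, among them the fits without Null control replicate 1 or 2, DKO control replicate 1, Null etoposide replicate 3 or DKO etoposide replicate 2. After etoposide it was -0.47 (adjusted p 0.00233).

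Ccng1, which encodes cyclin G1, a partner of a phosphatase that acts on MDM2, reached the highest CPM of the members. It lay at 129, 131 and 132 CPM in the Null controls and 2008, 1868 and 1911 CPM once treated, and in the DKO line 183, 203 and 215 CPM in controls and 1300.1, 1313 and 1419 CPM once treated. The order of the groups was the same as for Mdm2, again without overlap. It rose 3.88 on the log2 scale in Null cells (SE 0.0750, adjusted p 1.05e-11) and 2.75 in DKO cells, with an interaction of -1.13 (SE 0.106, adjusted p 1.76e-05).

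Ppm1d, a phosphatase that switches off ATM and p53, measured 42.2, 45.4 and 46.0 CPM in the Null controls and 67.7, 60.8 and 63.2 CPM once treated, and in the DKO line 42.8, 41.2 and 38.6 CPM in controls and 45.5, 47.0 and 45.3 CPM once treated. It rose by 0.52 in Null cells (adjusted p 8.17e-05), had a value of 0.17 in DKO cells (adjusted p 0.0752) and was 0.47 lower in DKO cells after etoposide (log2 difference -0.47, adjusted p 2e-04). The treated Null libraries stood above all others, and the treated DKO libraries overlapped the Null controls. Its value in DKO cells was called in 3 of 20 alternatives, with DESeq2 (adjusted p 0.0294), with library size alone (0.23, adjusted p 0.0248) and without both control replicates numbered 1 (0.19, adjusted p 0.0341). Its interaction of -0.35 was near the threshold (adjusted p 0.0437) and was not called in 14 of 19 alternatives, 10 of which each left out 1 library (all but Null control replicate 3 and DKO control replicate 3).

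Mdm4, a relative of MDM2 that binds p53 and blocks it, measured 83.4, 83.6 and 79.3 CPM in Null control and 87.2, 76.4 and 86.5 CPM in Null etoposide libraries, with overlap. In DKO cells it went from 71.2, 73.9 and 76.5 CPM to 63.2, 61.5 and 65.3 CPM, without overlap. It fell by 0.22 in DKO cells (adjusted p 0.023), a call lost in 6 of 20 alternatives, among them the fits that left out DKO control library 2 or 3 or DKO etoposide library 1 or 2, with adjusted p up to 0.0956. The interaction was -0.24 (adjusted p 0.177), and after etoposide Mdm4 was lower in DKO than in Null cells by a log2 difference of -0.39 (adjusted p 0.000779).

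**Figure D3:**
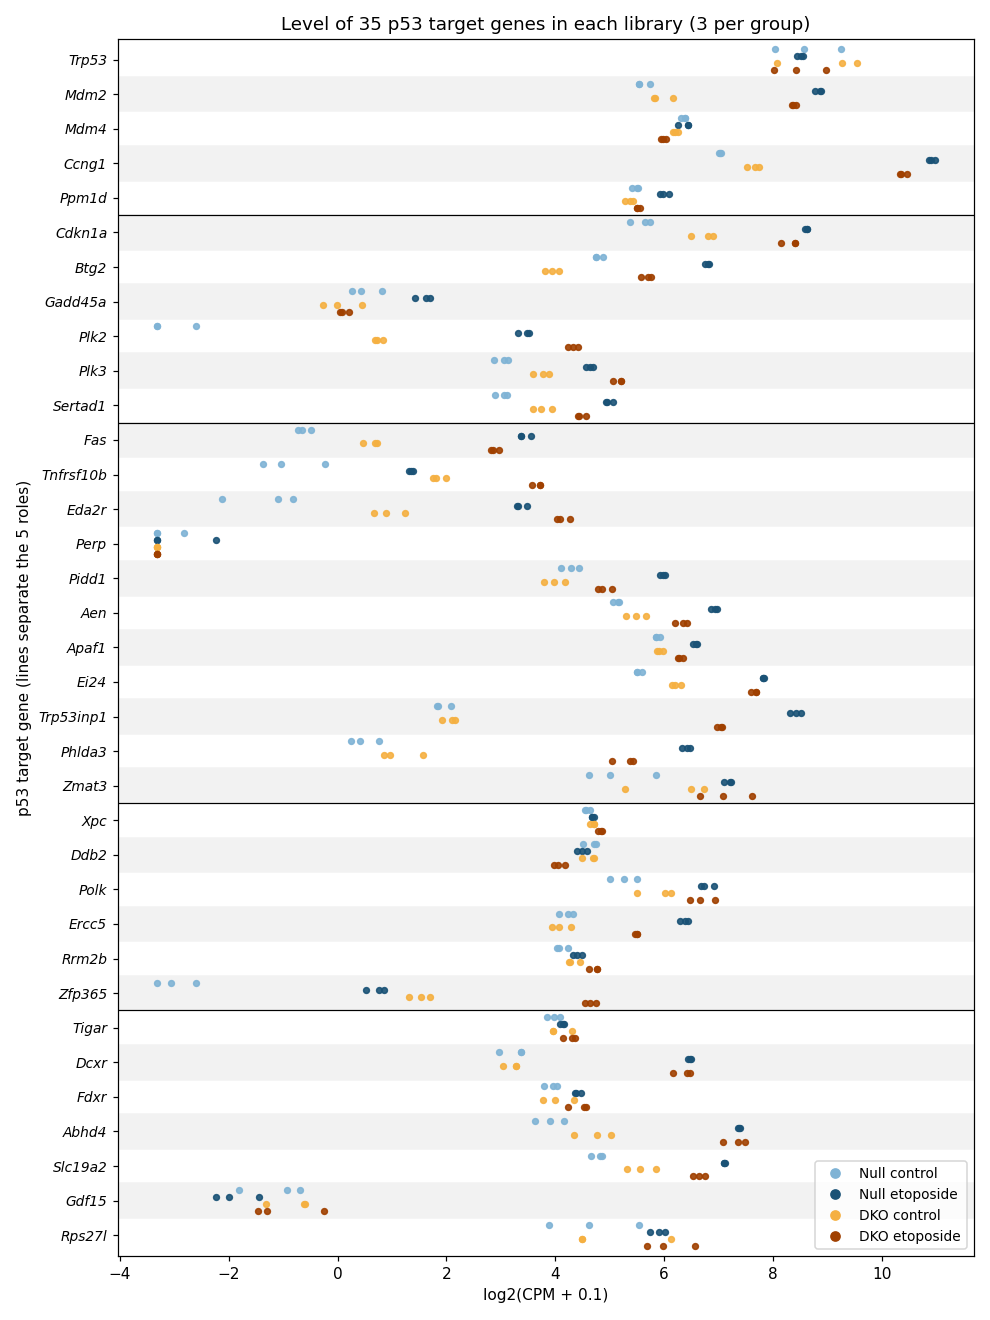
Level of each of the 35 members in the 12 libraries, as log2(CPM + 0.1), with 3 points per group and lines between the 5 roles. Etoposide moves most members of the arrest and apoptosis roles to the right in both lines, while Trp53 (264 to 609 CPM in Null control and 269 to 750.0 CPM in DKO control libraries), Zmat3, Rps27l and Gdf15 spread widely within groups and Perp stays near 0.

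Genes of cell cycle arrest rose in Null cells without exception, by 1.09 (Gadd45a) to 7.15 (Plk2). Cdkn1a encodes p21, the inhibitor of cyclin-dependent kinases through which p53 halts the cycle, and lies at chr17:29090976-29100727. It measured 53.2, 50.0 and 41.4 CPM in the Null controls and 394, 386 and 396 CPM once treated, and in the DKO line 90.1, 119 and 112 CPM in controls and 339, 285 and 339.9 CPM once treated. Its libraries did not overlap between any 2 groups. It rose by 3.03 in Null cells (8.17-fold; SE 0.119, adjusted p 2.59e-09) and by 1.59 in DKO cells (SE 0.119), and the interaction was -1.44 (SE 0.168). In control cells DKO exceeded Null cells by 1.15 (adjusted p 1.55e-05). After etoposide the log2 difference was -0.29 (adjusted p 0.0779), which was called in 5 of 20 alternatives, among them the fits without Null control replicate 3 or DKO control replicate 1.

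Plk2, a stress-induced polo-like kinase at chr13:110395046-110400844, was near absent from Null control cells, with 2 counts over the 3 libraries (0.0648, 0 and 0 CPM). A count of 0 allows up to 3 counts, or 0.0493 to 0.0973 CPM in these libraries, a limit that like the intervals below covers counting error only. It reached 11.4, 9.85 and 11 CPM in Null etoposide libraries, lay at 1.52, 1.69 and 1.56 CPM in DKO control libraries and at 18.7, 20.0 and 21.2 CPM in DKO etoposide libraries. DKO cells were thus above Null cells at both treatments and the groups did not overlap. Summed over the libraries, the ratio of Null etoposide to Null control cells was 693 (exact 95% interval 192 to 5726, from 1764 and 2 counts), and that of DKO to Null control cells was 103 (28.1 to 854). The fitted log2 values of 7.15 in Null cells, 3.60 in DKO cells and -3.55 for the interaction (adjusted p 2.11e-05) depend on the prior count at so low a start. After etoposide the difference between the lines was 0.89 (adjusted p 0.0121), and at a prior count of 1 it was 0.90 and not called (adjusted p 0.132).

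Of the other arrest genes, Gadd45a, a growth arrest protein, was called in Null cells and not in DKO cells. It measured 1.34 ± 0.294 CPM in the Null controls and 2.89 ± 0.284 CPM once treated, and in the DKO line 0.963 ± 0.269 CPM in controls and 0.980 ± 0.0647 CPM once treated (SD, n = 3), with a log2 fold change of 1.09 in Null cells (adjusted p 0.00128) and 0.06 in DKO cells (adjusted p 0.866). Its interaction of -1.04 was just inside the threshold (adjusted p 0.0496) and was lost in 15 of 19 alternatives with adjusted p up to 0.126. These included every fit that left out 1 library but those without Null control replicate 3 or DKO control replicate 3. An overlapping gene on the other strand could supply an estimated 6.31% of the Gadd45a counts. In control cells its difference between the lines was -0.47 (adjusted p 0.161), and it was called at -0.66 without DKO control replicate 1 (adjusted p 0.0341) and at -0.78 without both control replicates numbered 1 (adjusted p 0.0116). Btg2, an antiproliferative protein, rose by 2.00 and 1.75 (interaction -0.25, adjusted p 0.233) and was lower in DKO cells before and after etoposide (-0.86 and -1.11), at 15.2 ± 1.35 against 27.6 ± 1.40 CPM and then 51.3 ± 3.24 against 111 ± 2.67 CPM (SD, n = 3). Plk3, a kinase related to Plk2, rose by 1.62 and 1.41 (interaction -0.20, adjusted p 0.489) and was higher in DKO cells at both treatments (0.73 and 0.53). Sertad1, a regulator of cyclin-dependent kinase 4, rose by 1.97 (Null) and 0.72 (DKO) and crossed from 0.74 above to a log2 difference of -0.50, with an interaction of -1.24 (adjusted p 0.000123).

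Of the 11 apoptosis genes, 10 were tested and all rose in Null cells. Trp53inp1, which encodes a nuclear protein that promotes p53 activity, is at chr4:11156431-11174379. It went from 4.12, 3.51 and 3.46 CPM to 364, 318 and 345 CPM in the Null line and from 4.38, 3.68 and 4.21 CPM to 132, 133 and 126 CPM in the DKO line. The control libraries of the 2 lines overlapped, whereas the treated DKO libraries all lay far below the treated Null libraries. The log2 fold changes were 6.51 and 4.98 (SE 0.0930 each) and the interaction was -1.53 (SE 0.131, adjusted p 7.82e-06).

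Phlda3, an inhibitor of the survival kinase AKT, measured 1.23, 1.09 and 1.59 CPM in the Null controls and 80.3, 85.9 and 88.8 CPM once treated, and in the DKO line 2.87, 1.85 and 1.71 CPM in controls and 43.0, 41.3 and 33.0 CPM once treated. None of these groups overlapped. The rises were 5.98 (Null) and 4.18 (DKO), with an interaction of -1.80 (SE 0.267, adjusted p 0.000851). Its higher level in DKO control cells (0.67, adjusted p 0.0248) was not called in 4 of 20 alternatives, among them the fits without Null control replicate 1 or 2.

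Of the receptors of the tumour necrosis factor family, Fas, the receptor of the death ligand FASL, measured 0.616, 0.505 and 0.536 CPM in the Null controls and 11.6, 10.2 and 10.3 CPM once treated, and in the DKO line 1.52, 1.29 and 1.56 CPM in controls and 7.18, 7.75 and 6.92 CPM once treated. The DKO libraries were higher before the drug and lower after it, without overlap. It rose by 4.14 and 2.28, and its interaction of -1.86 (SE 0.183, adjusted p 2.66e-05) was the second lowest of the members after that of Plk2 in this fit, whereas Zfp365 was lower than Fas with a prior count of 1, edgeR or DESeq2 (-2.10, -2.74 and -2.87). Eda2r, a receptor of ectodysplasin A2, went from 0.130, 0.464 and 0.371 CPM to 9.74, 9.83 and 11 CPM in the Null line and from 1.50, 1.76 and 2.26 CPM to 16.8, 16.3 and 19.2 CPM in the DKO line. DKO libraries were above Null libraries at both treatments. After etoposide the difference was 0.77 (adjusted p 0.0675), which was called in 6 of 20 alternatives, among them edgeR (adjusted p 0.00411), DESeq2 (adjusted p 6.76e-07) and the fits without Null control replicate 1 (adjusted p 0.00226) or 2 (adjusted p 0.043). Its interaction was -1.65 (SE 0.424, adjusted p 0.0275), and the call was lost in 7 of 19 alternatives, each of which left out 1 library (DKO control replicate 2 or 3, any Null etoposide library, or DKO etoposide replicate 1 or 2), with adjusted p up to 0.0757.

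Tnfrsf10b, the receptor of the death ligand TRAIL, was higher in DKO cells at both treatments. Its mean was 0.475 ± 0.241 CPM in the Null controls and 2.45 ± 0.0570 CPM once treated, and in the DKO line 3.52 ± 0.318 CPM in controls and 12.6 ± 0.755 CPM once treated (SD, n = 3). Every DKO control library, from 3.27 to 3.88 CPM, was above every Null etoposide library, from 2.39 to 2.51 CPM. Its rises were 2.33 (Null) and 1.83 (DKO), and the DKO excess was 2.83 in controls (adjusted p 2.54e-06) and 2.34 once treated (adjusted p 9.03e-06). The interaction was -0.50 (adjusted p 0.478) and -0.84 without Null control replicate 2 (adjusted p 0.03).

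The remaining apoptosis genes rose in Null cells by 0.70 to 2.30. Pidd1, a scaffold of the complex that activates caspase-2, went from 19.3 ± 2.24 to 62.9 ± 2.17 CPM (Null) and from 15.8 ± 2.20 to 29.7 ± 2.71 CPM (DKO; SD, n = 3), with an interaction of -0.79. Its difference in control cells of -0.29 (adjusted p 0.106) was called at -0.39 without DKO control replicate 2 (adjusted p 0.0439). Aen, an exonuclease active in apoptosis, and Ei24, a protein of the endoplasmic reticulum, had interactions of -0.95 and -0.86, both higher in DKO control cells (0.35 and 0.69). The call of Aen in control cells was lost in 4 of 20 alternatives, 2 of them by leaving out a library, Null control replicate 1 or DKO control replicate 2. An estimated 9.10% of the counts of Ei24 could come from an overlapping antisense gene. After etoposide Ei24 differed by -0.17 (adjusted p 0.0702), which was called lower in 4 of 20 alternatives, among them DESeq2 (-0.16, adjusted p 0.0456) and the fit without both control replicates numbered 1 (-0.16, adjusted p 0.0392). Apaf1, the core of the apoptosome, moved least, by 0.70 in Null and 0.36 in DKO cells, and its interaction of -0.34 (adjusted p 0.0292) was lost in 9 of 19 alternatives, among them the fits without Null control replicate 2, Null etoposide replicate 1 or 3, or any DKO etoposide library. Perp had 2 counts over the Null control libraries and 6 counts, all in 1 library, over the Null etoposide libraries, and 0 counts in each of the 6 DKO libraries, so no fold is given.

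Zmat3, which encodes a zinc finger protein that binds RNA, rose in Null cells by 2.03 (adjusted p 0.000892). It measured 57.3, 32.1 and 24.6 CPM in the Null controls and 150.0, 138 and 148 CPM once treated, and in the DKO line 39.0, 89.6 and 106 CPM in controls and 135, 101 and 197 CPM once treated. The DKO groups overlapped, and the value in DKO cells was 0.95 (adjusted p 0.0623). It passed the test in DKO cells in 6 of 20 alternatives, with values up to 1.23. Rps27l (0.67), Gdf15 (0.58), Zmat3 and Trp53 (0.55 each) had the widest within-group standard deviations of the members on the log2 scale, against a median of 0.21 over all genes.

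These wide members moved with the library score described above, as did Polk and Abhd4. Among the Null controls, whose scores ran from -36.5 to 30.9, Trp53, Zmat3, Gdf15, Polk and Abhd4 were highest and Rps27l lowest in the library with the lowest score. In DKO control replicate 1, at the opposite end with a score of 44.1, Trp53, Zmat3, Gdf15, Polk and Abhd4 were lowest of their group and Rps27l, at 69.8 CPM, was highest. Other members took the same order in the controls with a smaller spread, Slc19a2 among them. The score is made from all genes, these included, and its part in their results was not tested. Without Null control replicate 1 and DKO control replicate 1, a choice made after seeing the data, Zmat3 was 1.81 higher in DKO control cells (adjusted p 0.00138) with an interaction of -1.87 (adjusted p 0.0088), against 1.01 (adjusted p 0.0826) and -1.08 (adjusted p 0.276) with all libraries. The difference in control cells was called in 4 of 20 alternatives, among them DESeq2 with all libraries (1.03, adjusted p 0.025). The Zmat3 interaction was called in 2 of 19, among them the fit without DKO control replicate 1 (-1.52, adjusted p 0.0488).

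**Figure D4:**
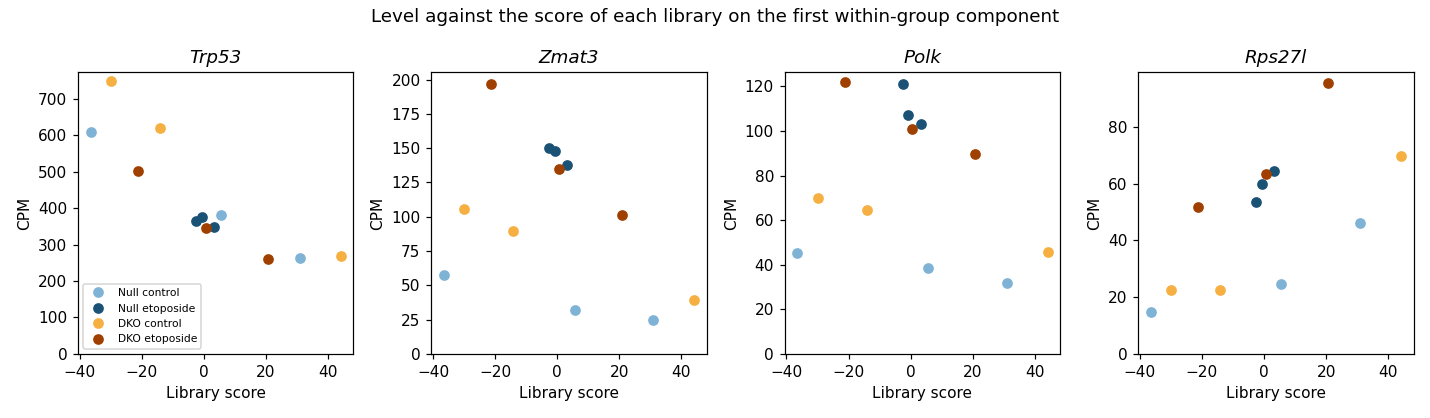
CPM of Trp53, Zmat3, Polk and Rps27l (vertical axes, from 0) against the score of each library on the first component of the within-group deviations (horizontal axes), with 1 point per library and colours for the 4 groups. Trp53, Zmat3 and Polk are highest within the control groups at low scores and Rps27l at high scores, from 14.7 CPM at -36.5 to 46.2 CPM at 30.9 in Null control libraries.

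Of the 6 genes of DNA repair and nucleotide supply, 4 rose in both lines. Ercc5, which encodes the XPG nuclease of nucleotide excision repair, rose by 2.16 in Null cells (18.5 ± 1.67 to 82.7 ± 4.03 CPM) and by 1.39 in DKO cells (17.2 ± 2.15 to 44.9 ± 0.774 CPM; SD, n = 3), and its interaction of -0.77 (adjusted p 0.00306) was the only one called in this role. In control cells its difference of -0.11 was not called, and without both control replicates numbered 1 it was -0.26 (adjusted p 0.0204). Polk, a DNA polymerase that copies past lesions, measured 45.2, 38.5 and 32.0 CPM in the Null controls and 121, 103 and 107 CPM once treated, and in the DKO line 45.5, 64.5 and 70.0 CPM in controls and 101, 89.5 and 122 CPM once treated. The treated libraries of each line lay above its controls. It rose by 1.53 and 0.81, and its interaction of -0.72 (adjusted p 0.0919) was called at -0.84 without Null control replicate 1 and at -0.91 without DKO control replicate 1. Its higher level in DKO control cells (0.63, adjusted p 0.021) was lost in 6 of 20 alternatives, among them the fits without Null control replicate 2 or 3 or DKO control replicate 2 or 3. Rrm2b, the p53-inducible subunit of ribonucleotide reductase, measured 16.2, 16.7 and 18.8 CPM in the Null controls and 22.4, 20.9 and 19.9 CPM once treated, and in the DKO line 21.7, 19.3 and 18.9 CPM in controls and 24.5, 27.3 and 27.0 CPM once treated. The etoposide libraries of each line lay above its controls, and the rises were 0.29 (adjusted p 0.0229) and 0.39 (adjusted p 0.00413). The first was lost in 5 of 20 alternatives, among them the fits without Null control replicate 1 or 2 or Null etoposide replicate 1 or 2. Rrm2b was higher in DKO cells after etoposide by 0.32 (adjusted p 0.0168), a call lost when library 2 or 3 of either treated group was left out.

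Xpc and Ddb2 encode the sensors of DNA lesions in nucleotide excision repair, and neither was called higher in either line with limma-trend. Xpc measured 23.3, 24.7 and 23.7 CPM in the Null controls and 25.6, 25.5 and 26.0 CPM once treated, and in the DKO line 26.0, 24.8 and 26.0 CPM in controls and 28.6, 29.0 and 27.5 CPM once treated. Its values were 0.10 in Null cells (adjusted p 0.225) and 0.15 in DKO cells (adjusted p 0.0885), although the groups of each line did not overlap. In DKO cells Xpc was called higher with DESeq2 (0.16, adjusted p 0.0252) and with library size alone (0.21, adjusted p 0.0284). Ddb2 measured 26.9, 26.0 and 22.6 CPM in the Null controls and 22.3, 21.1 and 24.0 CPM once treated, and in the DKO line 22.3, 25.7 and 26.0 CPM in controls and 16.5, 15.6 and 18.1 CPM once treated. It fell by 0.56 in DKO cells (adjusted p 0.000691), where the groups did not overlap, against -0.16 in Null cells (adjusted p 0.217), and the interaction was -0.39 (adjusted p 0.114; called at -0.47, adjusted p 0.0444, without DKO control replicate 1). An estimated 19.9% of its counts could come from Acp2, which overlaps it on the opposite strand.

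Zfp365, a zinc finger protein that protects telomeres and replication forks, at chr10:67886103-67912662, had the largest fitted differences between the lines of all tested members. It had 3 counts over the Null control libraries (0.0648, 0 and 0.0206 CPM), and measured 1.70, 1.34 and 1.60 CPM once treated, while the DKO libraries held 2.40, 3.14 and 2.78 CPM as controls and 26.7, 23.4 and 24.7 CPM once treated. Each DKO control library was above each Null etoposide library. The ratio of Null etoposide to Null control cells was 66.8 (exact 95% interval 22.6 to 326) and that of DKO to Null control cells 119 (40.6 to 582). The latter interval overlaps that of Plk2 (28.1 to 854), so the order of these genes in control cells is not settled. After etoposide DKO cells were higher by 3.96 (SE 0.234, adjusted p 5.76e-08). The interaction was -1.11 (adjusted p 0.0579) and depended on how low counts were treated: it was called at -2.10 with a prior count of 1, at -2.74 with edgeR and at -2.87 with DESeq2, and also when library 1 of the Null controls (-1.43) or of the DKO controls (-1.20) was left out.

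Among the remaining members, Dcxr, a reductase of sugars and carbonyls, rose by 3.24 in Null and 3.17 in DKO cells. It measured 10.2, 10.3 and 7.73 CPM in the Null controls and 87.2, 90.4 and 89.0 CPM once treated, and in the DKO line 8.10, 9.61 and 9.67 CPM in controls and 86.1, 71.9 and 89.5 CPM once treated. The lines overlapped at both treatments, and the interaction was -0.08 (SE 0.173, adjusted p 0.878). Fdxr, the reductase that feeds electrons to mitochondrial cytochromes P450, measured 13.7, 15.4 and 16.3 CPM in the Null controls and 20.7, 22.1 and 20.6 CPM once treated, and in the DKO line 20.2, 15.9 and 13.6 CPM in controls and 23.0, 23.6 and 18.7 CPM once treated. It rose by 0.48 (adjusted p 0.0148) and 0.40 (adjusted p 0.0356), with overlap in DKO cells. The first call was lost when Null control library 1 or Null etoposide library 2 was left out, and the second in 10 of 20 alternatives, 8 of which each left out 1 library (all but Null control replicates 1 and 3, DKO control replicate 1 and DKO etoposide replicate 3).

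Abhd4, a lipase of N-acyl phospholipids, and Slc19a2, a thiamine transporter, were the members of this role with a lower interaction. Abhd4 rose by 3.49 (Null) and 2.60 (DKO), from 14.9 ± 2.77 and 26.7 ± 6.20 CPM to 166 ± 2.68 and 159.8 ± 22.6 CPM (SD, n = 3). The lines thus overlapped after etoposide (-0.07), and the interaction of -0.90 (adjusted p 0.0362) was lost in 10 of 19 alternatives, 9 of which each left out 1 library (all but Null control replicate 1, DKO control replicate 1 and DKO etoposide replicate 3), with adjusted p up to 0.107. The Abhd4 controls moved with the library score, whose part in this result was not tested, and without both control replicates numbered 1 the interaction was -1.22 (adjusted p 0.000226). Slc19a2 rose by 2.33 and 1.07, from 27.5 ± 2.06 and 48.2 ± 8.72 CPM to 138 ± 0.845 and 100.2 ± 7.78 CPM (SD, n = 3), with an interaction of -1.27 (adjusted p 0.000256).

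Tigar, Gdf15 and Rps27l were not called in any comparison. Tigar, a phosphatase that lowers glycolytic flux, measured 14.4, 15.6 and 17.0 CPM in the Null controls and 17.7, 17.5 and 16.8 CPM once treated, and in the DKO line 19.6, 15.4 and 15.4 CPM in controls and 19.7, 20.5 and 17.5 CPM once treated. The groups overlapped within each line and between the lines at each treatment, and the interaction of Tigar was 0.06. Its value in DKO cells of 0.20 became 0.31 and was called without DKO control replicate 1 (adjusted p 0.0209). Gdf15, a secreted stress cytokine, was near the limit of detection at 0.519, 0.424 and 0.186 CPM in the Null controls and 0.151, 0.114 and 0.270 CPM once treated, and in the DKO line 0.301, 0.557 and 0.549 CPM in controls and 0.309, 0.262 and 0.740 CPM once treated. The groups overlapped in every comparison. Its values were -0.84 in Null cells (adjusted p 0.148) and -0.17 in DKO cells, and the interaction was 0.67 (SE 0.610, adjusted p 0.635). Without Null control replicate 3 the value in Null cells was -1.21 and was called (adjusted p 0.0482). Rps27l, a ribosomal protein relative that binds MDM2, measured 14.7, 24.5 and 46.2 CPM in the Null controls and 53.5, 64.4 and 59.7 CPM once treated, and in the DKO line 69.8, 22.4 and 22.5 CPM in controls and 63.2, 95.3 and 51.7 CPM once treated. The Null groups did not overlap and the DKO groups did. It had values of 1.21 in Null cells (adjusted p 0.0504) and 1.05 in DKO cells (adjusted p 0.0851). The first was called without Null control replicate 3 (1.63, adjusted p 0.0116), DKO control replicate 1 or DKO control replicate 3, and the second without DKO control replicate 1 (1.58, adjusted p 0.00619).

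Compared as CPM divided by exon length in kb, a scale on which levels of different genes can be set side by side, the order of the members changed with the drug. In Null control cells Trp53 led with a mean of 103 CPM per kb, followed by Ccng1 (37.2) and Rps27l (34.9), and the libraries of Rps27l reached from 18.0 to 56.6 and overlapped Ccng1. In Null etoposide cells Ccng1 led at 549, well above Cdkn1a (110.4), Mdm2 (90.3) and Trp53 (89.5), and the levels of the last 2 overlapped. In DKO etoposide cells Ccng1 was at 383, and Trp53 (91.1), Cdkn1a (90.4) and Rps27l (85.9) overlapped.

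Another 38 p53 targets were listed for comparison, of which 33 were tested. In Null cells 22 rose and 8 fell, in DKO cells 16 rose and 6 fell, and the interaction was lower for 13 and higher for 1, Sesn1, an inhibitor of mTORC1. Sesn1 did not rise with etoposide in either line: it fell from 43.4 to 27.9 CPM in Null cells (-0.62, adjusted p 0.00147), was 16.5 CPM in DKO controls and 17.7 CPM after etoposide (0.11, adjusted p 0.521), and was lower in DKO than in Null controls (-1.39), so that its interaction of 0.74 (adjusted p 0.0181) set a fall in one line against no called change in the other. Over all genes tested, 20.9% rose and 18.7% fell in Null cells, 20.2% rose and 19.1% fell in DKO cells, and 6.39% and 3.07% were lower and higher in the interaction. The median interaction was -0.52. The lowest value was that of Epha2, an ephrin receptor, at -3.18 (3.46 ± 0.412 to 205 ± 6.91 CPM in Null and 19.2 ± 3.52 to 123 ± 15.2 CPM in DKO cells; SD, n = 3). The apoptosis genes Pmaip1, encoding NOXA (-2.05), and Bbc3, encoding PUMA (-1.57), were called higher in Null cells and not called in DKO cells. Pmaip1 went from 17.4 ± 0.859 to 79.8 ± 4.39 CPM (Null) and measured 22.2 ± 0.772 and 24.5 ± 1.87 CPM in DKO controls and treated cells (SD, n = 3), where its value of 0.14 was not called. Ckap2 (-1.99) and Gtse1 (-1.92) encode proteins of the mitotic spindle. Ckap2 rose by 0.45 in Null cells and fell by 1.54 in DKO cells, whereas Gtse1 rose in both, by 2.53 and 0.61.

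Of 24 genes that act on p53, 21 were tested, while Cdkn2a, Trp63 and Trp73 were near 0. In Null cells 3 rose and 7 fell, in DKO cells 3 rose and 9 fell, and the interaction was lower for 4 and higher for none, with a median of -0.02. The 10 called in Null cells compare with 39.6% of all genes, the 12 called in DKO cells with 39.3%, and the 4 lower in the interaction with 6.39%. Atm and Atr, the kinases that sense DNA breaks and stalled forks, fell in both lines, by 0.64 and 0.74 for Atm and by 0.53 and 0.73 for Atr. Chek1, the kinase downstream of ATR, fell by 1.04 in Null cells (39.7 ± 7.58 to 19.1 ± 0.483 CPM) and by 2.30 in DKO cells (47.2 ± 6.34 to 9.50 ± 0.658 CPM; SD, n = 3), with an interaction of -1.26 (adjusted p 0.000834). Chek2, the kinase downstream of ATM, had a value of 0.26 in Null cells (adjusted p 0.0667), fell by 0.31 in DKO cells and had an interaction of -0.57 (adjusted p 0.0287). Sirt1, a deacetylase of p53, had a value of 0.06 in Null cells and fell by 0.41 in the DKO line, and its interaction was -0.47 (adjusted p 0.0146). Ppp1r13l, encoding the p53 inhibitor iASPP, rose by 3.39 in Null cells (2.14 ± 0.337 to 22.8 ± 1.10 CPM) and by 1.85 in DKO cells (3.42 ± 1.09 to 12.2 ± 2.16 CPM; SD, n = 3), with an interaction of -1.54 (adjusted p 0.00536).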

How the data were processed

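Per the study's methods, the authors removed ribosomal RNA, made stranded libraries, sequenced read pairs, aligned them with HISAT2 and kept uniquely mapped pairs. The table deposited by the authors holds raw gene counts of 12 libraries, not pooled and not normalized. The methods name HTSeq as the counter and the submitters' processing notes name featureCounts, with mm10 as the build. The methods name GENCODE annotation, but its release and the strand setting are not given in the sources used here. For members that overlap another gene, the share of counts the neighbour could supply was therefore estimated. The estimate takes the neighbour's mean read density over all libraries as even along its exons, so it is no upper limit. Genes with near-identical copies lose counts where only unique pairs are kept. The labels name more than 1 RNA extraction kit without saying which library had which.

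The members and lists were chosen with earlier results of these data known. Identifiers without their version were matched to GENCODE M21 (GRCm38), and 99.4% had a symbol. Groups came from the labels. Genes were filtered by filterByExpr of edgeR 4.0.16 (18066 genes, 99.96% of counts) and scaled by TMM (factors 0.939 to 1.03). Log2 CPM with a prior count of 3, which understates folds of low genes, were tested with limma 3.58.1 in R 4.3.3 (limma-trend, robust, all 12 libraries, 5 contrasts, two-sided, Benjamini-Hochberg over all genes, called at an adjusted p under 0.05). All adjusted p-values are from this test unless another tool is named. The study calls its samples independent, but neither it nor the labels say whether these were separate cultures, so p-values measure only the spread between these libraries. The scripts were tested on simulated data.

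Values per library were given for p53, Mdm2, Mdm4, Ccng1, Ppm1d and Cdkn1a and for the members with the 5 highest and 5 lowest Null responses and interactions (Dcxr and Fdxr tied), with Zmat3, Polk and Rps27l added for their spread after their values were seen. Of the other lists, Atm, Atr, Chek1, Chek2 and the called genes with the 5 largest interactions were named, and Sesn1 as a single exception. Alternatives were edgeR's quasi-likelihood test, DESeq2 1.42.0, no filter, library size alone, a prior count of 1, the replicate number as a block, only the groups compared, a minimum absolute log2 fold change of 1, and each library left out. Another alternative, added after seeing the data, left out both control replicates numbered 1.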

Additional observations from a re-analysis of the deposited data

Results flagged for a closer look

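The response to etoposide differed between the lines, by the interaction test (limma-trend with Benjamini-Hochberg adjustment over all 18066 genes), for 18 of the 34 tested members, each with a lower value in DKO cells, where 6.39% of all genes were called lower and 9.45% in either direction. The log2 differences of response were -3.55 for Plk2, -1.44 for Cdkn1a, -1.24 for Sertad1 and -1.04 for Gadd45a among the genes of cell cycle arrest. They were -1.86 for Fas, -1.80 for Phlda3, -1.65 for Eda2r, -1.53 for Trp53inp1, -0.95 for Aen, -0.86 for Ei24, -0.79 for Pidd1 and -0.34 for Apaf1 among those of apoptosis. The feedback genes Ccng1, Mdm2 and Ppm1d had -1.13, -0.79 and -0.35, and Slc19a2, Abhd4 and Ercc5 had -1.27, -0.90 and -0.77. Of 19 alternatives, the call was lost in 15 for Gadd45a, 14 for Ppm1d, 10 for Abhd4, 9 for Apaf1 and 7 for Eda2r, and leaving out 1 library took the number of members called as low as 13.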

How the results depend on the processing

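Of 170 values, those of the 34 tested members in the 5 contrasts, 132 had the same call under every alternative run other than the minimum fold change and 38 had another call under at least 1. No called value changed its direction. A minimum absolute log2 fold change of 1 left 2381, 2370, 1365, 2167 and 816 genes called in Null cells, in DKO cells, between the lines in control cells, between them after etoposide and in the interaction, and left 17, 6, 7 and 10 members in the last 4 of these. Fitting the control groups alone gave 2073 genes between the lines. The median of the members was 1.95 in Null cells with DESeq2, and in DKO cells 0.98 with edgeR, 0.99 with DESeq2 and 1.12 with library size alone, which gave 0.26 in control cells, -0.27 after etoposide and -0.74 in the interaction. Without both control replicates numbered 1, chosen after seeing the data, the DKO median was 1.16, and 7258 genes between the lines in control cells and 3682 in the interaction were called, with 20 members in each.

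Leaving out 1 library at a time gave 5855 to 7956 genes and 25 to 29 members called in Null cells (median 1.85 to 2.01), 5834 to 7823 and 24 to 29 in DKO cells (1.06 to 1.22), 2722 to 4745 and 14 to 18 between the lines in control cells (0.33 to 0.45), 4723 to 6957 and 20 to 22 after etoposide (-0.30 to -0.17), and 1209 to 2057 and 13 to 20 in the interaction (-0.83 to -0.73). The replicate numbers did not pair the libraries (correlations of same-numbered deviations from -0.54 to 0.39, and 0 of 12 libraries closest to their own number). With the numbers as a replicate block the calls of Gadd45a, Ppm1d, Apaf1 and Abhd4 in the interaction and of Mdm2 and Polk in control cells were lost. Each Null control library held at most 37 counts of Plk2, Zfp365, Gdf15, Perp, Fas, Eda2r and Tnfrsf10b, which limits the precision of their values there.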
